A study of Mus musculus with 9 samples.

Results

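The genes described here are 29 histone genes of the mouse, measured in cultures of the embryonic cortex. They are the genes of 22180 on the array table whose probe set carries a single symbol of the H1f, H2ac, H2bc, H3c or H4c series. A probe set is the group of array probes summarised into a single level, and where a gene had several, the one with the highest mean level stood for it. The members comprise 8 H1f genes for linker histone H1, 6 H2ac genes for H2A, 8 H2bc genes for H2B and 7 H4c genes for H4, with 0 H3c genes. By their older names, 21 lie in the large Hist1 cluster and 5 in the Hist2 cluster, so 26 of 29 fit the description of clustered histone genes. H1f7, H1f8 and H1f10 lie outside these clusters. Near-identical copies can be read by each other's probes, so each level may hold RNA of more than the named gene.

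All cells came from the cortex of wild-type CD1 mouse embryos, with 3 arrays for each of 3 cultures. The co-culture held neurons from embryonic day 16, grown for 4 days before precursors from embryonic day 13 were added for 1 day, so its cells had 5 days and 1 day in culture. The neurons alone came from embryonic day 16 and spent 5 days in culture, and the precursors alone came from embryonic day 13 and spent 1 day in culture. The labels describe the arrays as biological replicates and do not say whether embryos were pooled, so p-values measure the spread between 3 such samples. Neurons and precursors also differ in embryonic day and in days in culture, and these cannot be told apart from cell type here.

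Histones are the proteins around which DNA is wound. H2A, H2B, H3 and H4 form the nucleosome core, and H1 binds the linker DNA where it enters and leaves the core. Most genes of the clusters are replication-dependent: cells transcribe them in S phase to package newly copied DNA, and their mRNA ends in a stem-loop in place of a poly(A) tail. Other histone genes are active in the germ line or supply replacement histones outside S phase. Of the 29 members, 23 are counted here as replication-dependent and 5 as germ-line genes, and H1f10, which encodes the solitary somatic linker histone H1.10, stands alone. The 23 are simply all members other than the germ-line genes and H1f10. Whether each of them is replication-dependent was not tested. The cDNA was made with a whole-transcript kit, which as background does not depend on a poly(A) tail.

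Levels are log2 values after robust multi-array averaging (RMA), so a difference of 1 is a doubling. The array medians lay between 6.75 and 6.79. Over all probe sets, arrays of the same culture correlated at 0.988 or above. The correlation was 0.964 to 0.969 between neurons and precursors, and 0.989 to 0.994 between co-culture and precursors. Of the 29 histone genes, 6 lay above the array median on all 9 arrays and 13 lay below it on all 9. Among the members, 6 had the same value on 2 arrays of a culture, as did 23% of all genes. Of 10 neuron markers, 8 were higher in neurons than in precursors, and all 10 precursor markers were lower in neurons. Tubb3, a neuron marker, did not pass the test and averaged 11.96 in precursors.

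The control regions of these genes share short motifs that background knowledge ties to histone transcription. Windows of 250 bases before to 50 bases after the start were available for 27 of the 29 members, from RefSeq on GRCm38.p6. H2bc21 and H4c14 had no window. The 250 bases before the start are shown for the members with the largest falls in neurons among the H1, H2B and H4 genes, and for the testis linker histone gene H1f7 as a contrast. Capitals mark CCAAT (the CCAAT box), TATAA (the TATA box), TTTGCAT (the octamer core of H2B promoters) and AAACACA (the H1 box), each searched on both strands. The reverse of CCAAT reads ATTGG and that of TATAA reads TTATA, and neighbouring matches can overlap.
H1f5, chr13:21780626-21780875, minus strand: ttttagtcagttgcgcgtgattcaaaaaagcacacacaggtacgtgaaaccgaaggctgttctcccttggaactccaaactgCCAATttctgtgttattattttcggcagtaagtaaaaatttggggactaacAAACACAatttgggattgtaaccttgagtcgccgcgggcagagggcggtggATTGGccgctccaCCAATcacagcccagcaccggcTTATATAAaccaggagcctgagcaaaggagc
H2bc12, chr13:22035571-22035820, plus strand: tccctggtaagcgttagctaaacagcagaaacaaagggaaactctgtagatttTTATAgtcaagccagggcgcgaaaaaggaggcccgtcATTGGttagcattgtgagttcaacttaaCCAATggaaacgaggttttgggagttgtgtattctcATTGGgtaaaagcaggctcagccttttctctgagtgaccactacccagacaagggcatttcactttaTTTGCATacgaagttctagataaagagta
H2bc18, chr3:96269450-96269699, plus strand: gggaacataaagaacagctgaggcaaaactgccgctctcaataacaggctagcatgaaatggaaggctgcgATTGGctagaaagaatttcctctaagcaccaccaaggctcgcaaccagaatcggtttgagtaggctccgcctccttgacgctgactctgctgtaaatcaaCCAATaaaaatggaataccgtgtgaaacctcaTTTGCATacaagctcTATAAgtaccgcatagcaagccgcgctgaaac
H4c17, chr13:21811496-21811745, plus strand: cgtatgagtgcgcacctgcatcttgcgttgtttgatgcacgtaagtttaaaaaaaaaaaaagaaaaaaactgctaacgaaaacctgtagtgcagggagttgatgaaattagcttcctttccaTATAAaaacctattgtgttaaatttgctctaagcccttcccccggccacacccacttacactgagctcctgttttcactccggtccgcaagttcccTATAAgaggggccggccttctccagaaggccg
H1f7, chr15:98257308-98257557, minus strand: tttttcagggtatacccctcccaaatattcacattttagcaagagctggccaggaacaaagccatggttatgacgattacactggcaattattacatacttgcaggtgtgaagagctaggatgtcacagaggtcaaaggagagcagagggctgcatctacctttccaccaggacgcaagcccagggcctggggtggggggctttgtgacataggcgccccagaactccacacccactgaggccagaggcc

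H1f5 held the AAACACA box 117 bases before its start, with CCAAT at 53 and TATAA at 28 bases before it. H2bc12 and H2bc18 held TTTGCAT at 29 and 47 bases before their starts, and H4c17 held TATAA at 32 bases. The H1f7 window held none of the 4 motifs. Across the members, CCAAT stood in 20 of 27 windows (74.1%), against 37.4% of 32851 windows of the same length. TATAA stood in 21 of 27 (77.8%), against 24.9% of all windows. TTTGCAT stood in 8 of 27 (29.6%), against 4.63%, and AAACACA in 7 of 27 (25.9%), against 7.18%. By class, CCAAT was in 6 of 6 H2ac and 7 of 7 H2bc windows but in 1 of 6 H4c windows, while TATAA was in 6 of 6 H4c, 6 of 6 H2ac, 5 of 7 H2bc and 4 of 8 H1f windows. The TATAA counts take a match anywhere in the window. In H4c1, H4c8, H2ac12 and H2ac15 the only match lay after the start. In H2bc12 and H2bc22 it lay 197 and 211 bases before the start. TTTGCAT was in 5 of 7 H2bc windows, in 3 of 6 H2ac windows and in 0 of the H1f and H4c windows. Windows of neighbouring genes that run in opposite directions can overlap, and the same site then counts for both genes. H2ac12 and H2bc12 share their TTTGCAT and CCAAT matches in this way, as do H2ac1 and H2bc1. The counts over members thus hold some sites more than once. The H1 box lay 112 to 122 bases before the start in H1f2, H1f3, H1f5 and H1f6, the H1f windows that held it. Of the 5 germ-line genes, 4 held CCAAT, 3 held TATAA, 3 held AAACACA and 2 held TTTGCAT, against 16, 18, 4 and 6 of the 21 replication-dependent genes with a window. A match describes these letters in the window and is not evidence that a factor binds there.

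The first comparison asks how histone RNA differs between neurons and the dividing precursors of the cortex. Of the 29 histone genes, 21 were lower in neurons and 0 were higher in limma's test across all genes, with an adjusted p under 0.05. Among all 22180 genes, 20.2% were lower by the same rule and 17.7% were higher. A fall of at least 2-fold was found in 10 of the 29, against 2.85% of all genes. The median difference over the 29 was -0.62 on the log2 scale, against 0.013 over all genes. At an unadjusted p under 0.05, 22 members were lower and 1, H1f6, was higher, against 5056 and 4665 of all 22180 genes. The neuron arrays lay wholly below the precursor arrays in 22 members, against 23.6% of all genes, and wholly above them in 0, against 21.4%. In such bulk samples, fewer cells that make a histone mRNA and less of that mRNA per cell cannot be told apart.

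The fall was found in each of the 4 histone classes. It was called in 20 of 23 genes counted as replication-dependent, whose median difference was -0.85, in H1f10, and in 0 of 5 germ-line genes. By class, 4 of 8 H1f, 4 of 6 H2ac, 7 of 8 H2bc and 6 of 7 H4c genes were lower. By location, 15 of 21 genes of the Hist1 cluster and 5 of 5 of the Hist2 cluster were lower. No test set these groups of members against each other.

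**Figure D1:**
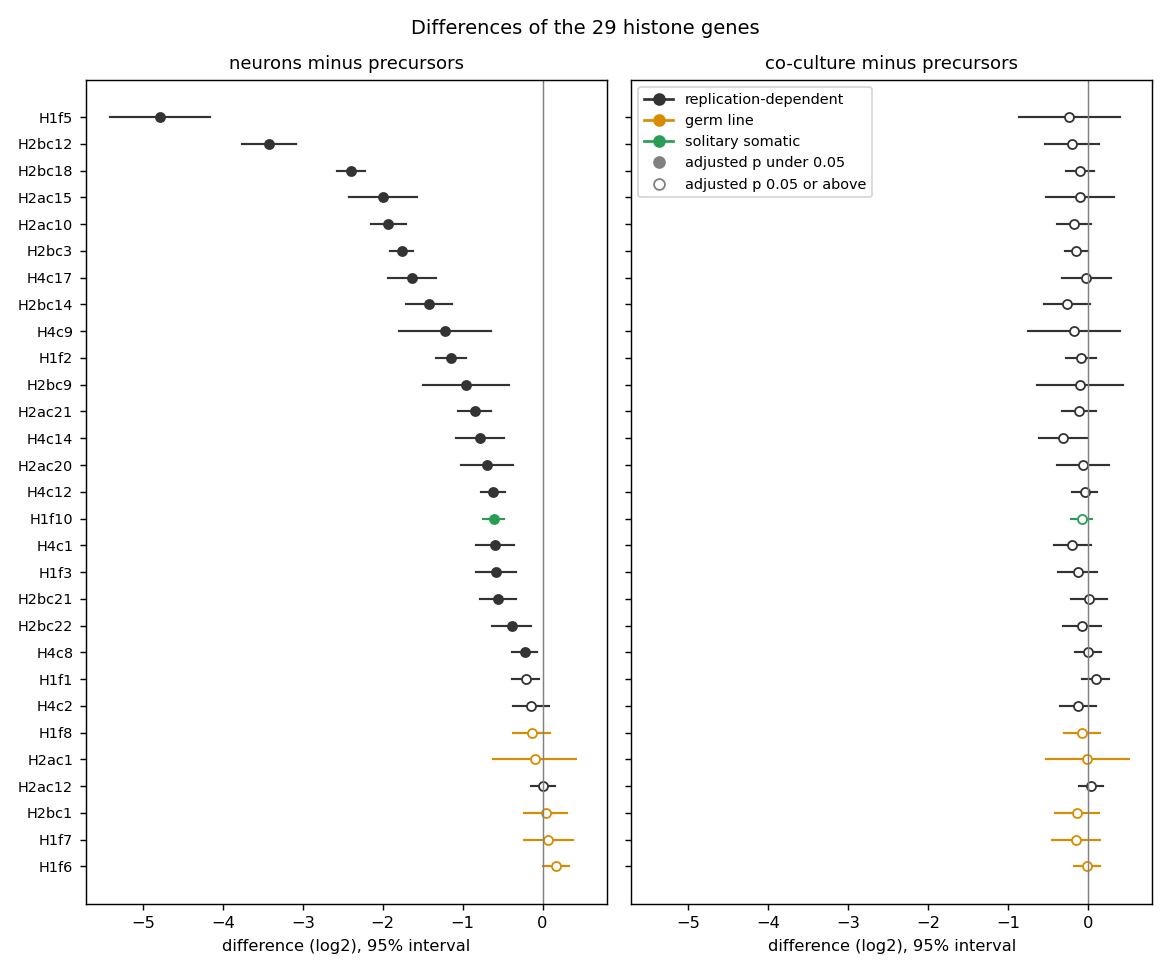
Difference from precursors of each of the 29 histone genes on the log2 scale, in neurons (left) and in the co-culture (right), with 95% intervals from limma. Colours give the kind of gene, and filled points passed an adjusted p of 0.05. In neurons 21 genes lie below zero with filled points, while in the co-culture 0 points are filled.

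Among the linker histones, H1f5 showed the largest fall, and indeed the largest of all 22180 genes. H1f5 encodes linker histone H1.5, a replication-dependent H1 of dividing cells. Its level was 4.64, 5.82 and 4.50 in neurons, against 9.72, 9.74 and 9.88 in precursors. The groups lay far apart, and neuron replicate 2 was the highest of the neuron arrays. The difference was -4.79 (SE 0.28), or 27.7-fold lower, with an adjusted p of 5.45e-07 in limma. Without neuron replicate 2 it was -5.21. H1f2, for linker histone H1.2, fell less, with 7.84, 7.69 and 7.55 in neurons against 8.75, 8.91 and 8.86 in precursors. Its groups did not overlap, and it was 2.21-fold lower (adjusted p = 2.49e-06). H1f3, for H1.3, was 1.5-fold lower, at 5.99, 5.58 and 6.08 in neurons against 6.42, 6.47 and 6.52 in precursors.

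H1f10, whose product H1.10 is made outside S phase as well, was 9.71, 9.74 and 9.57 in neurons, against 10.28, 10.33 and 10.24 in precursors. Its arrays were tight within each culture, and the difference of -0.61 (SE 0.060) had an adjusted p of 1.95e-05. H1f1, for H1.1, had 4.15, 4.10 and 3.96 in neurons and 4.23, 4.25 and 4.36 in precursors. These groups did not overlap, but the difference of -0.21 missed the threshold (adjusted p = 0.0508). It passed without neuron replicate 1 (0.0481), without co-culture replicate 2 (0.0375) or without co-culture replicate 3 (0.0450), and with cyclic loess (0.0364).

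**Figure D2:**
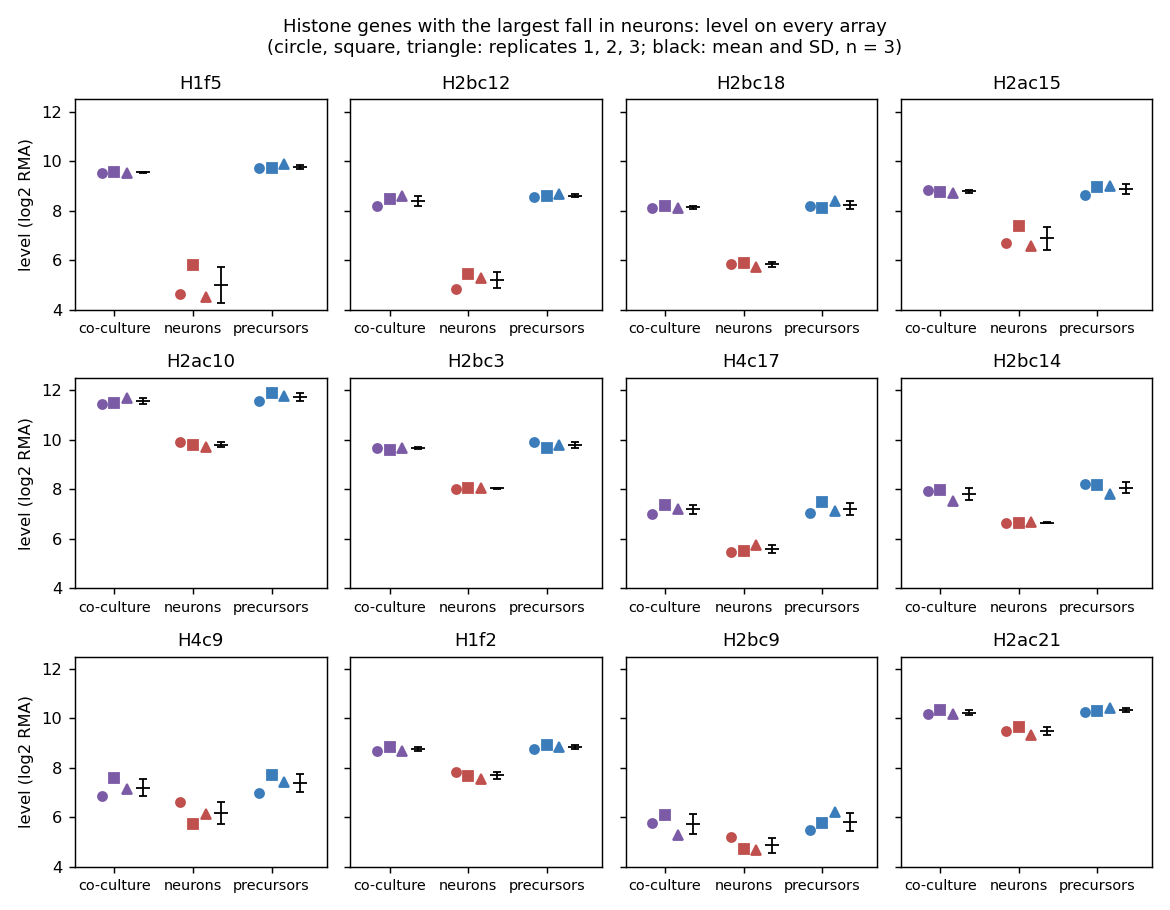
Level on each of the 9 arrays (log2 RMA) for the 12 histone genes with the largest fall in neurons; circles, squares and triangles are replicates 1 to 3, and black bars are the mean and SD of 3 arrays. In each panel the neuron arrays lie below the precursor arrays, while the co-culture arrays lie near the precursor arrays, with H1f5 showing both the widest gap and, among its neuron arrays, the widest spread (SD 0.73).

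The H2A genes encode the core histone that pairs with H2B. H2ac15 was 6.68, 7.39 and 6.57 in neurons, against 8.65, 8.97 and 9.01 in precursors, a 3.99-fold fall (adjusted p = 1.74e-05). H2ac10 was 9.92, 9.78 and 9.71 in neurons, against 11.56, 11.88 and 11.76 in precursors, a 3.81-fold fall (adjusted p = 1.90e-07). Neither gene's groups overlapped, and neuron replicate 2 stood above the other neuron arrays for H2ac15 only. H2ac21, of the Hist2 cluster, was 9.49, 9.67 and 9.31 in neurons and 10.28, 10.30 and 10.44 in precursors, a difference of -0.85 (adjusted p = 4.62e-05). A second probe set of H2ac21 stayed between 4.55 and 4.74 in neurons and between 4.64 and 4.74 in precursors, and the mean of both probe sets gave -0.44. H2ac20, also of the Hist2 cluster, fell by 0.69 on the log2 scale (adjusted p = 0.00336).

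H2ac12 did not pass in either direction. It was 3.45, 3.36 and 3.23 in neurons and 3.38, 3.37 and 3.26 in precursors, near the dim end of the scale. H2ac12 is the divergent partner of H2bc12: the 2 genes run in opposite directions from starts 178 bases apart. H2bc12 fell 10.7-fold, so the members of this pair gave unlike differences on the array. No detection calls were used, and differences of dim probe sets can be understated. Among the histone genes with a window, 10 such divergent pairs had starts under 500 bases apart, and 2 of them have both genes among the members. Pairs that include H2bc21 or H4c14, which had no window, could not be found this way. In the other, H2ac1 and H2bc1, with starts 281 bases apart, neither gene passed.

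Of the 8 H2B genes, 7 fell, and H2bc12 fell the most. H2bc12 was 4.83, 5.46 and 5.27 in neurons, against 8.54, 8.61 and 8.68 in precursors. Its difference was -3.42 (SE 0.15; adjusted p = 9.14e-08), the fifth largest fall of all genes. H2bc18, of the Hist2 cluster, was 5.86, 5.90 and 5.74 in neurons, against 8.19, 8.11 and 8.39 in precursors. The neuron arrays lay close together and far below the precursor arrays, and the 5.26-fold fall had an adjusted p of 1.46e-08. H2bc3 was 8.02, 8.05 and 8.05 in neurons, against 9.92, 9.69 and 9.81 in precursors, a 3.40-fold fall (adjusted p = 2.34e-08). H2bc14 was 6.63, 6.64 and 6.67 in neurons, against 8.22, 8.17 and 7.81 in precursors, a 2.68-fold fall (adjusted p = 1.11e-05).

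The other H2B falls were smaller. H2bc9 was 5.22, 4.74 and 4.66 in neurons and 5.50, 5.75 and 6.23 in precursors, and fell by 0.96 on the log2 scale (adjusted p = 0.00961). H2bc21, an H2B gene of the Hist2 cluster, was 6.85, 6.79 and 6.68 in neurons and 7.25, 7.43 and 7.32 in precursors, and fell by 0.56 (adjusted p = 0.00128). Both genes' groups stayed apart. H2bc22 fell by 0.39 (adjusted p = 0.0153), and without precursor replicate 1 its adjusted p was 0.0582.

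The H4 genes encode a core histone whose gene copies code for the same protein and can be read by each other's probes. H4c17 was 5.48, 5.49 and 5.76 in neurons, against 7.03, 7.48 and 7.13 in precursors, a 3.11-fold fall (adjusted p = 5.84e-06). H4c9 was 6.61, 5.73 and 6.14 in neurons, against 6.99, 7.70 and 7.45 in precursors, a 2.33-fold fall (adjusted p = 0.00360). The H4c9 arrays were the more scattered, though its groups did not overlap. H4c12 was 12.17, 12.43 and 12.30 in neurons and 12.89, 12.98 and 12.89 in precursors, a difference of -0.62 (adjusted p = 4.73e-05). H4c14 fell by 0.78 (adjusted p = 0.000933) and H4c1 had a difference of -0.59. H4c8 fell by 0.22 (adjusted p = 0.0319) and missed the threshold without neuron replicate 1 (0.0967) or 3 (0.0985) and without precursor replicate 1 (0.0563) or 2 (0.116). H4c2 had a difference of -0.14 that did not pass (adjusted p = 0.339).

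The germ-line genes formed the group without a call. H1f6 encodes the testis linker histone H1t, H1f7 a linker histone of spermatids, H1f8 the oocyte linker histone, and H2ac1 and H2bc1 the testis forms of H2A and H2B. All 5 were dim: H2ac1 lay above the array median on 1 array and the others on 0. Of the other members below it on all 9 arrays, H1f3, H2ac20, H2bc9, H2bc22, H4c1 and H4c8 fell, while H1f1, H2ac12 and H4c2 did not pass. Whether low level goes with the lack of calls was not tested. Between neurons and precursors, the differences of the germ-line genes ran from -0.13 in H1f8 to 0.17 in H1f6, and the levels of all 5 overlapped. H1f6 was 5.36, 5.21 and 5.42 in neurons and 5.22, 5.09 and 5.17 in precursors (adjusted p = 0.0999). Without neuron replicate 2, H1f6 passed as higher in neurons (0.23, adjusted p = 0.0259), and so did H1f7 (0.25, adjusted p = 0.0437). Neuron replicate 2 had the highest neuron level in 10 of the 21 members that fell, replicate 1 in 8 and replicate 3 in 3.

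Many histone copies are too alike for a probe set to name just 1, and 38 further probe sets carried several histone symbols. They name no gene and are not among the 29; 3 repeat the values of another, which leaves 35. In a fit over all 41345 probe sets, 28 of the 35 were lower in neurons and 0 were higher. At the same adjusted threshold, 14.5% of all probe sets were lower. At an unadjusted p under 0.05, 30 of the 35 were lower and 0 higher, against 7705 and 6427 of all 41345. By class, 8 of 9 for H2A, 6 of 7 for H2B, 8 of 12 for H3, 5 of 5 for H4 and 1 of 2 of mixed class fell. These sets give the only view of the H3 genes, which had no probe set of their own. The H3 set with the largest fall was 4.89, 5.39 and 4.86 in neurons, against 7.96, 8.30 and 8.16 in precursors, 8.54-fold lower (adjusted p = 4.81e-06). The H2A set with the largest fall was 4.32, 5.24 and 4.09 in neurons, against 8.21, 8.60 and 8.69 in precursors, 15.4-fold lower (adjusted p = 1.00e-05). In both, as in H1f5, neuron replicate 2 was the highest neuron array.

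**Figure D3:**
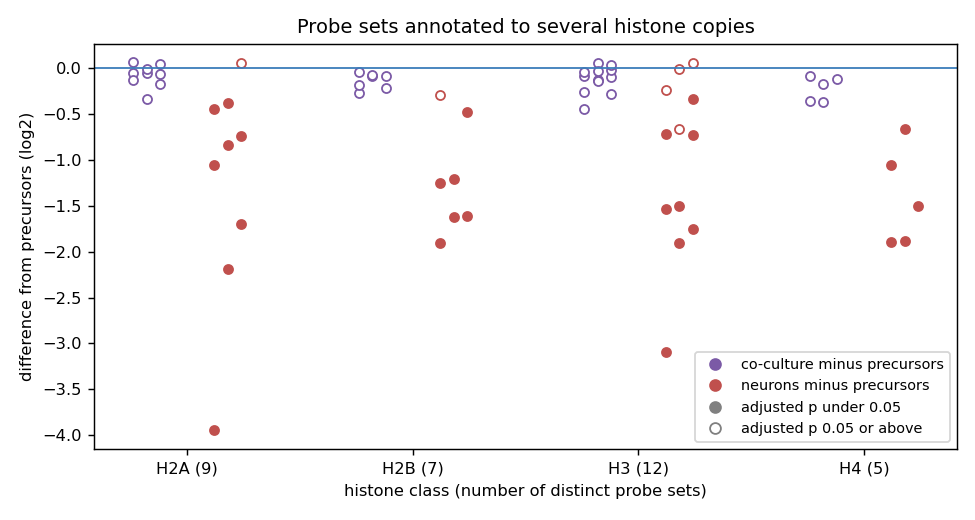
Differences from precursors (log2) of the probe sets annotated to several histone copies, by histone class, for the co-culture (purple) and for neurons (red); filled points passed an adjusted p of 0.05, and the 2 sets of mixed class are left out. Most neuron points lie well below zero in each class, while co-culture points lie near zero and 0 are filled.

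Genes that supply, process or handle histones were compared in the same way. Of 8 replacement histone genes with a probe set, 6 were lower in neurons and 1 was higher, with a median of -0.93. Of these 8, H1f10 is also a member. H3f3a, H3f3b and H1f0 were on the list too but had no probe set with a single symbol, so the counts leave them out. H2az2, for the H2A.Z variant, was 4.74-fold lower, and Cenpa, for the centromeric H3 variant, fell by 1.73 on the log2 scale. H2ax, for the variant phosphorylated at DNA breaks, differed by -1.38 and Macroh2a1 by -1.02, while Macroh2a2, the other macroH2A gene, rose by 0.53 (adjusted p = 0.0196), a call lost without neuron replicate 1 or without precursor replicate 1 or 2. Of 19 genes for the transcription and 3′ processing of histone mRNA, 14 were lower and 1 was higher, with a median of -0.39. Slbp, which binds the stem-loop, was 8.14, 8.32 and 8.23 in neurons, against 9.15, 9.05 and 9.13 in precursors, a difference of -0.88 (adjusted p = 1.39e-06). Npat, the S phase activator of the histone clusters, fell by 0.74. Casp8ap2, which acts with it at the histone clusters, differed by -1.27 and Eri1, an exonuclease that trims the stem-loop, by -1.02. Lsm11, of the U7 particle that cuts histone pre-mRNA, rose by 0.45 (adjusted p = 0.0106).

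Of 23 histone chaperone and assembly genes, 16 were lower in neurons and 4 were higher, with a median of -0.54. Chaf1b and Chaf1a, subunits of the assembly factor that follows the replication fork, differed by -2.17 and -1.47. Asf1b, an H3 and H4 chaperone, differed by -2.02 and Hat1, the acetyltransferase of new H4, by -1.66. The nucleosome assembly protein genes Nap1l5 and Nap1l3 rose by 1.16 and 0.93. For scale, 26 of 26 genes of S phase and its onset were lower, with a median of -1.90, and 19 of 19 mitosis genes, with a median of -2.19. Pcna, the replication clamp, differed by -1.23 and Mki67, a mark of cycling cells, by -2.96. The median over the 29 histone genes was thus nearer zero than those of both cell-cycle lists, while H1f5 fell more than any gene of either list. These lists hold different genes at different levels, and no test compared them.

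**Figure D4:**
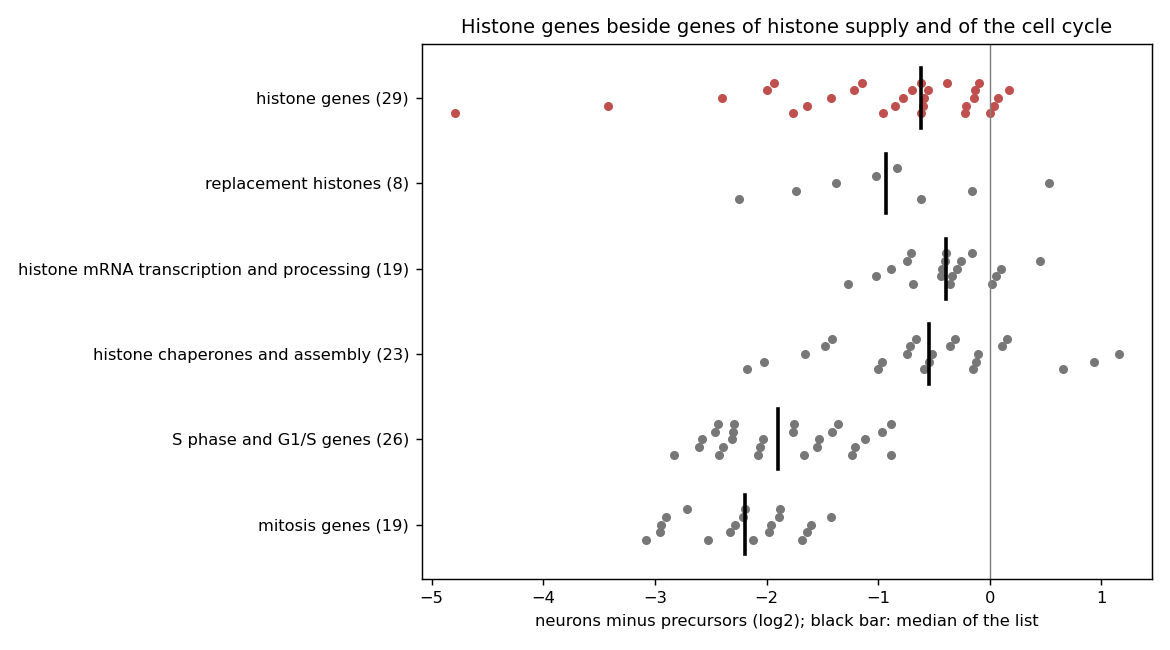
Difference between neurons and precursors (log2) of each histone gene (red, 29) and of each gene in 5 lists of histone supply and the cell cycle (grey), with the list's median as a black bar. All points of the S phase and mitosis lists lie below zero, while the histone genes spread from -4.79 to 0.17.

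Markers of other cell types were set beside the shares of all genes, 20.2% lower and 17.7% higher in neurons. Of 7 endothelial and mural markers, 4 were lower in neurons, and their mean log2 level per array was 6.54 to 6.63 in neurons and 6.94 to 7.07 in precursors. Of 10 microglia markers, 3 were lower and 1 was higher, with mean levels of 6.64 to 6.76 in neurons and 6.81 to 6.96 in precursors. Astrocyte markers had 2 of 6 higher, and the 6 oligodendrocyte and 6 meningeal markers had 0 calls in limma's test. The 1 red blood cell marker with a probe set had 0 calls too. The part of these cells in the histone differences was not tested.

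The second comparison sets the co-culture, which mixes both cell types, against precursors alone. None of the 29 histone genes passed limma's test in either direction, where 0.18% of all genes were lower and 3.53% were higher. At an unadjusted p under 0.05, 2 were lower (H2bc3 and H4c14) and 0 were higher, and the smallest adjusted p was 0.369, for H4c14. Among all 22180 genes, 810 were lower and 2044 were higher at that unadjusted p. The median over the 29 was -0.098, against -0.0042 over all genes. Of the 29 differences, 25 lay below zero, against 11488 of 22180 for all genes. The co-culture arrays lay wholly below the precursor arrays in H1f3, H1f5 and H1f7, 3 of 29, against 6.77% of all genes, and wholly above them in 0, against 12.3%. Each 95% interval lay between -0.86 and 0.51, so a change of 2-fold or more lay outside the interval of every member, and 21 lay above -0.5.

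H1f5 was 9.54, 9.57 and 9.54 in the co-culture, against 9.72, 9.74 and 9.88 in precursors. Its difference was -0.23, with an interval of -0.86 to 0.40. Limma's interval uses a spread shared by all 3 cultures, and the neuron arrays of H1f5 scattered most. The SD of H1f5 was 0.73 in neurons, 0.018 in the co-culture and 0.086 in precursors. In the co-culture, replicates 1 and 3 of H1f5 had the same deposited value. Limma's adjusted p for H1f5 was 0.847 here, and the lowest across the alternatives was 0.0913. H2bc12 was 8.19, 8.47 and 8.58 in the co-culture, against 8.54, 8.61 and 8.68 in precursors, and these arrays overlapped. H4c14, the largest difference, was 7.14, 7.42 and 6.88 in the co-culture, against 7.31, 7.65 and 7.41 in precursors, a difference of -0.31. H2bc3 was 9.69, 9.61 and 9.69 in the co-culture, against 9.92, 9.69 and 9.81 in precursors, a difference of -0.14. The probe sets of several copies gave 0 of 35 lower or higher, against 0.0653% of all probe sets lower. At an unadjusted p under 0.05, 3 of them were lower and 0 higher, against 1469 and 2476 of all 41345 probe sets. In the 5 lists of histone supply and the cell cycle, Nap1l5 alone passed, higher by 0.50 in the co-culture (adjusted p = 0.00367). In the S phase list, 25 of 26 differences lay below zero, 14 genes had co-culture arrays wholly below the precursor arrays, and 5 were lower at an unadjusted p under 0.05. In the mitosis list these counts were 19, 7 and 1 of 19. Pcna passed as lower in 2 alternatives, with a 75th percentile filter and with a trended robust variance, and Cdc45, of the replicative helicase, in 1, without precursor replicate 2 (adjusted p = 0.0489). Of 10 neuron markers, 6 were higher in the co-culture than in precursors, and the 10 precursor markers had 0 calls in limma's test.

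For the 10 members that were at least 2-fold lower in neurons, the co-culture level can be placed on a linear scale between precursors, at 0%, and neurons, at 100%. The median place lay between 10.6% and 16.4% on the 3 co-culture arrays, with a mean of 13.3 ± 2.92% (SD, n = 3). The same median over the 622 other genes at least 2-fold lower in neurons lay between 7.24% and 13.7%, with a mean of 10.6 ± 3.23% (SD, n = 3). The ranges overlapped. Single genes ran from 2.11% in H4c17 to 26.2% in H2bc14. H1f5 was the tightest, at 15.4 ± 1.09% (SD, n = 3), and H4c9 the loosest, at 19.8 ± 40.1% (SD, n = 3). Co-culture replicates 1 and 3 of H1f5 had the same deposited value, which narrows its SD. These places share the neuron and precursor arrays with the comparisons above and are given as a description.

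**Figure D5:**
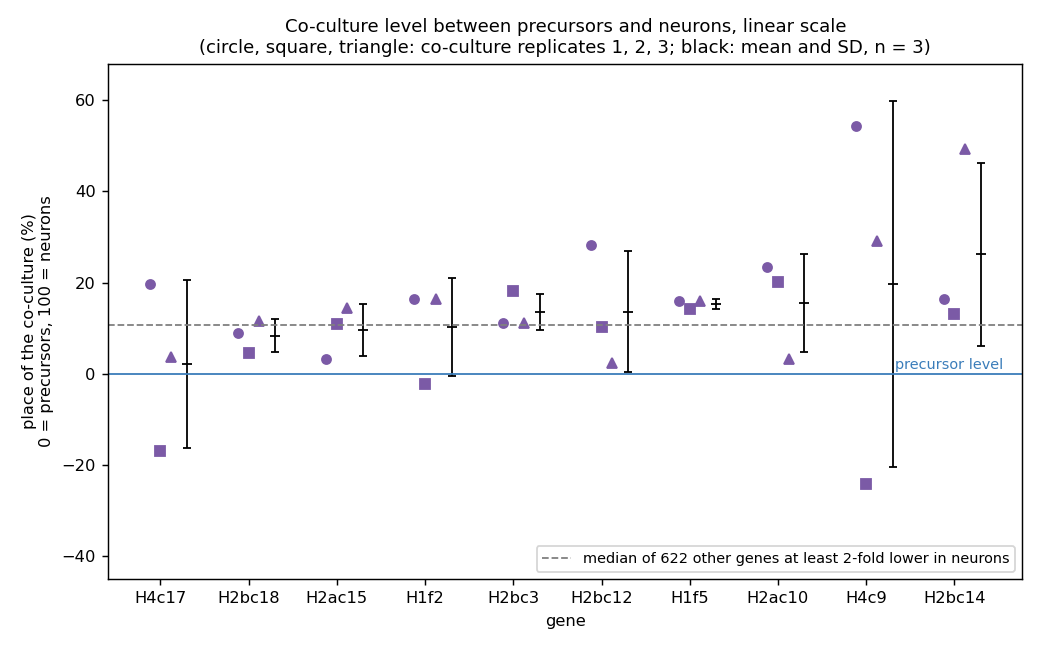
Place of each co-culture array between the mean precursor level (0%) and the mean neuron level (100%), on the linear scale, for the 10 histone genes at least 2-fold lower in neurons; black bars are the mean and SD of 3 arrays and the dashed line is the median of 622 other such genes. H1f5 arrays lie together at 15.4 ± 1.09%, with replicates 1 and 3 at the same value, while H4c9 arrays spread over 19.8 ± 40.1%.

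The third comparison sets the co-culture against neurons alone. Of the 29 histone genes, 22 were higher in the co-culture and 0 were lower in limma's test, where 20.3% of all genes were higher and 16.7% were lower. At an unadjusted p under 0.05, 22 were higher and 1 was lower, against 5096 and 4834 of all 22180 genes. The median over the 29 was 0.57, against -0.039 over all genes. H1f5 was 23.6-fold higher in the co-culture (4.56 on the log2 scale, adjusted p = 1.37e-06), the largest rise of all genes. H1f1, which missed the threshold between neurons and precursors, was higher by 0.31 in the co-culture, at 4.40, 4.26 and 4.49, against 4.15, 4.10 and 3.96 in neurons (adjusted p = 0.0086). The 7 members that did not pass were the 5 germ-line genes, H2ac12 and H4c2. Of the markers, 10 of 10 for precursors were higher in the co-culture than in neurons and 8 of 10 for neurons were lower. Of those for other cells, 4 of 7 endothelial and mural and 3 of 10 microglia markers were higher, and 1 microglia marker was lower. Also higher were 1 of 6 meningeal markers, 1 of 6 oligodendrocyte markers and the 1 red blood cell marker with a probe set. In addition, 1 of 6 astrocyte markers was lower. Mean log2 levels of the meningeal markers per array were 6.63 to 7.46 in the co-culture and 6.49 to 6.69 in neurons. The part of these other cells in the histone differences was not tested. This comparison shares its neuron arrays with the first and its co-culture arrays with the second.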

How the data were processed

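Total RNA (100 ng) was labelled from 9 cultures, 3 per group, per the labels' protocols. The authors deposited 1 log2 value for each probe set and array. The submitters' processing notes name RMA and the oligo package, with the genome build not given in the sources used here. RMA makes array distributions alike, so a shift common to most genes would not show. Of 41345 probe sets, 23521 had 1 gene symbol, 1814 several and 16010 none. Where a gene had several probe sets the brightest was used, which gave 22180 genes. All of them entered a limma model (limma 3.58.1 in R 4.3.3) of the 3 groups, without a filter on levels, so every member was tested. P-values are two-sided, with Benjamini-Hochberg adjustment over all genes and a threshold of 0.05. Groups came from the sample titles. Arrays have no read depth, and their number limits the precision. The members and lists were chosen with earlier results of these data known. Every member could be named, with values per array for up to 12 with the largest called difference and separate groups; other lists name up to 4 genes each, with Slbp, Npat, Casp8ap2, Pcna, Mki67 and E2f1. E2f1 fell by 1.12 in neurons. On simulated arrays, 89% of 1.5-fold and 98% of 2-fold changes between neurons and precursors were recovered over 22180 genes, and 7.43% of calls were false. Only 100 genes were changed at each fold, far fewer than were called in these data, so the rates may not carry over. Alternatives covered filters, scaling, probe set choice, array weights, variance models, the replicate block and each array left out.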

Additional observations from a re-analysis of the deposited data

How the results depend on the processing

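No called histone gene changed direction under any alternative tried. Between neurons and precursors, 19 of 21 calls were kept in every alternative that tested the gene, and between co-culture and neurons 17 of 22; for co-culture against precursors 0 calls were gained. With a filter at the array median, 15 members were tested and all 15 were lower in neurons, with a median of -1.42, and 1.16 for co-culture over neurons. With a filter at the 75th percentile, all 9 members tested were lower in neurons, with a median of -1.76, and all 9 were higher in the co-culture than in neurons, with a median of 1.62. Both filters let a member pass through its precursor or co-culture arrays alone, so low neuron levels did not keep it out and these counts and medians are partly set by the filter; they are no support for the fall. Leaving out each array in turn gave 19 to 23 called members between neurons and precursors, 19 to 22 lower and 0 to 2 higher, with medians of -0.66 to -0.59. It gave 0 to 0 calls for co-culture against precursors, with medians of -0.13 to -0.072. For co-culture against neurons it gave 17 to 22 calls, 17 to 21 higher and 0 to 2 lower, with medians of 0.51 to 0.60. Calls lost there were those of H2bc9, H2bc22, H4c1, H4c8 and H4c14. Array weights made 1 member, H1f6, lower in the co-culture than in neurons, and H2bc22 lost its call as higher (adjusted p = 0.108). Same-numbered arrays did not deviate together in every pair over all genes (co-culture with precursors 0.238, 0.168 and 0.0338; neurons with precursors 0.0107, 0.16 and -0.108), so the numbers were not taken as pairs; over genes above the array median in at least 3 arrays, the co-culture and precursor values were 0.345, 0.3 and 0.161. With the replicate block, H1f6 passed as 1 member higher in neurons than in precursors and 1 lower in the co-culture than in neurons, and H2bc22 again lost its call as higher in the co-culture (adjusted p = 0.0695). The totals were 22 in each of these comparisons and 0 for co-culture against precursors. A fit over all probe sets, chosen after seeing the data, called 20, 0 and 20 members. Differences of dim genes can be understated, which was not tested, and 13 members lay below the array median on all 9 arrays.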
